A study of Mus musculus with 4 samples.

Results

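The genes described here encode the proteins of the cytosolic ribosome, measured in fetal mouse brain after maternal food shortage. They were taken from the array's own gene names, as Rpl, Rps or Rplp followed by a number, with Rpsa added and the Rps6k kinases left out. The rule found 83 genes, of which 47 carry a large subunit name, 33 a small subunit name and 3 (Rplp0, Rplp1 and Rplp2) form the stalk, among 28146 named genes on the array. The 83 genes are covered by 137 probes on 155 of 43379 spots per array.

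All groups were whole brains of C57BL/6J fetuses, with no genetic change. Dams of the food deprivation group (FD) had their food removed overnight on gestation day 17, and dams of the food restriction group (FR) received 50% of the chow that controls ate from gestation day 10 to 17, with caesarean section on gestation day 18, a day the design text states for FR alone. Control dams ate freely. RNA of 5 fetuses was pooled per group, and each treated pool was hybridised with control RNA on 2 arrays with the dyes exchanged, the treated pool in Cy5 on array 1 and in Cy3 on array 2. Every condition is thus 1 pool, read again on the swapped array, and no difference between conditions could be tested: the values below carry technical error only. The labels do not say whether FD and FR were set against one control pool, so the comparisons are given side by side and not as independent of each other. In RNA of whole tissue, fewer cells of a type and less RNA per cell cannot be told apart.

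The cytosolic ribosome joins a small subunit, which reads the mRNA, to a large subunit, which forms the peptide bond, and its proteins are made in near-equal numbers from some of the most abundant mRNAs of a cell. Those mRNAs begin with a C followed by a run of pyrimidines, the 5′ terminal oligopyrimidine or TOP motif, through which the nutrient-sensing kinase complex mTORC1 controls their translation; Larp1 binds the motif and Rps6 itself is phosphorylated downstream of mTORC1. That control acts mainly on translation, which an array of total RNA does not measure. In the fetal brain, dividing progenitors have a high demand for ribosomes.

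Start sites of members are shown first, because the TOP motif is a feature described for these mRNAs that the naming rule did not use. RefSeq's promoter table (GRCm38.p6) held 61 of the 83 genes by symbol. Each line below gives 30 bases, 15 before the annotated start and 15 from it on, 5′ to 3′ in the direction of the gene, with a run of C followed by 4 or more C or T in capitals; where a window holds several runs, as that of Rps15a does, the one that spans the annotated start is marked, or else the longest. Rps6, Rps15a and Rpl14 are shown because the results below turn on them, Rplp2 and Rpl38 as examples of stalk and large subunit genes, and Rps25 and Rpsa as genes without a run in the window. In every window shown with a run, the annotated start is itself a C followed by 4 or more C or T. That held for only 12 of the 61 members, so these windows are not typical.
Rps6 (chr4:86857353-86857382, minus strand): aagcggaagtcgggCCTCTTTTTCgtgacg
Rps15a (chr7:118116133-118116162, minus strand): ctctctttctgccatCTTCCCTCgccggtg
Rpl14 (chr9:120571502-120571531, plus strand): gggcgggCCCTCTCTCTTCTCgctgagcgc
Rplp2 (chr7:141447636-141447665, plus strand): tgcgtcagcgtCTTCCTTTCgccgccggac
Rpl38 (chr11:114668565-114668594, plus strand): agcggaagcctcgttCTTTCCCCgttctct
Rps25 (chr9:44407699-44407728, plus strand): tttttccgacatcttagcgaggctgctgtg
Rpsa (chr9:120127751-120127780, plus strand): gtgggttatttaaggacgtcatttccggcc

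Such a run lay in the 30-base window of 38 of the 61 members (62.3%), against 36.4% of 27025 promoters in the table. On the opposite strand the share was 24.6% in members and 40.3% in all promoters. The annotated start itself was a C followed by 4 or more C or T, alone or inside a longer run that began before it, in 12 of 61 members (19.7%) and in 2.49% of all promoters. Over the whole stretch from 250 bases before to 50 after the start, on either strand, CCGGAAG, letters recognised by ETS factors, occurred in 39.3% of members and 9.12% of all promoters. AAGATGG, letters recognised by YY1, occurred in 14.8% and 6.48%. Both lay in the promoters of 2 of the 61 members and in 189 of all 27025 promoters. The end of the first and the start of the second can share AAG. The motifs overlapped in 4 of those 189 promoters and in none of the 2 members, which are too few to compare. These matches describe the letters of annotated starts and are not evidence of binding or of the start used in these brains.

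Probes are shown next, since the values of several genes depended on which of their probes was read; those of 4 such genes are given, and for Rps6 the brighter of its probes is printed. All are 60 bases long and are printed as on the array, in lower case, with the positions that the array files give on build mm9; the files state no exon or untranslated region.
Rps6, probe A_51_P344734 (chr4:86501886-86502077): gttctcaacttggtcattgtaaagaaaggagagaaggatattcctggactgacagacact
Rps15a, probe A_52_P577019 (chr7:125258356-125258659): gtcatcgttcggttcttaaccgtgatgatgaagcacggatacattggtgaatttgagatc
Rps15a, probe A_52_P491433 (chr7:125248322-125248381): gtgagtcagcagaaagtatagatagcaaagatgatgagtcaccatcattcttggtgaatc
Rps25, probe A_51_P274768 (chr9:44216846-44216905): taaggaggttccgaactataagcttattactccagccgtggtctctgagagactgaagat
Rps25, probe A_52_P436318 (chr9:44218247-44218306): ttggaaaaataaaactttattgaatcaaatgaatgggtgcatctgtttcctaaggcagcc
Rpl37, probe A_52_P150675 (chr15:5067361-5067420): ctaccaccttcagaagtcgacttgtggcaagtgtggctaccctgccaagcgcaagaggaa
Rpl37, probe A_51_P206665 (chr15:5068935-5068994): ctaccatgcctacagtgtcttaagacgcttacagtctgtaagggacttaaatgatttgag

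To count as measured, a probe needed spots without an outlier flag that the scanner called well above background for the treated and the control RNA on array 1 and array 2. Where a gene had several such probes, the one with the strongest signal was used. Brightness depends on the probe as well as on the RNA, so signals are not compared between genes. Of the 137 probes, 132 were well above background on all 4 arrays, so faint signal cost few members. Outlier flags cost more: they marked 54, 25, 34 and 62 of the 155 spots on FD arrays 1 and 2 and FR arrays 1 and 2, or 34.8%, 16.1%, 21.9% and 40.0%, against 5.45%, 3.88%, 4.97% and 8.32% of all spots. No spot of a member was saturated. In FD 63 genes (85 probes) and in FR 64 genes (85 probes) were measured, 56 genes in both. The 12 genes measured in neither were Rpl4, Rpl5, Rpl9, Rpl24, Rpl29, Rpl41, Rps10, Rps15, Rps19, Rps23, Rps27l and Rps29.

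As a check of the tissue, 7 of the 10 brain markers were measured in each comparison, with median log2 ratios of -0.10 in FD and -0.06 in FR. Of the marker lists, skeletal muscle had the largest shift, lower in FD, at a median of -1.87 over 9 measured of 10 listed genes, all 9 at least 1.5-fold lower on both arrays, and the median in FR was 0.02 over 10 genes. Brown fat and pituitary markers had medians of -1.13 and -0.67 over 4 genes each in FD, and 0.05 and -0.03 over 4 and 5 genes in FR. The other lists had medians in FD and FR of -0.21 and -0.03 for neural progenitors, -0.12 and -0.11 for neurons, -0.21 and 0.11 for erythroid cells, 0.68 and 0.41 for liver (3 genes), and -0.07 and 0.58 for neutrophils (4 and 3 genes). Their part in the ribosomal protein values was not tested.

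After overnight food deprivation the ribosomal protein genes as a group lay near their control level. The median log2(FD/control) was 0.03 over 63 genes, against 0.004 over all 17964 measured genes, and 60 of the 63 (95.2%) lay within 0.2 of 0, as did 88.6% of all measured genes. The medians of the single arrays lay on both sides of 0, at 0.14 on array 1 and -0.07 on array 2. Higher on both arrays were 11 genes and lower on both were 4, where 25.5% and 23.3% of all measured genes met those rules; centred on each array's median without loess, 1 and 0 were. At least 1.5-fold higher on both arrays was 1 gene by its array name, Rps6, where 0.0891% of all genes were, and none was at least 1.5-fold lower, where 0.128% of all genes were. That 1 call rests on the dimmer of the probes named Rps6, described further below, and without that probe 0 members passed.

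After food restriction the centre also lay near 0, and several members, read by dimmer probes, lay further below it. Over 58 member probes with a mean log2 signal of 14 or more, the lowest FR mean was -0.17. Over the 27 probes below 14 it was -0.51. The median log2(FR/control) was 0.05 over 64 genes, against 0.005 over 18560 measured genes, with single-array medians of 0.08 and -0.06, and 55 of 64 genes (85.9%) lay within 0.2 of 0, as did 76.9% of all measured genes. Higher on both arrays were 13 genes and lower on both were 8, where 28.3% and 27.4% of all genes were. These counts depended on the processing: with normexp on all spots 38 were higher and 6 lower, with a median of 0.24, and with median centring 0 were higher and 1 lower. None was at least 1.5-fold higher or lower on both arrays, where 0.582% and 0.431% of all genes were. Centred on each array's median without loess, the FR median turned to -0.03 and the FD median was 0.19.

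The swapped arrays disagreed for many of these genes. In FD 36 of 63 genes were higher in the treated pool on array 1 and lower on array 2, where 28.2% of all measured genes were, and in FR 28 of 64 were, where 24.8% were. Opposite signs of at least 1.2-fold on each array were found for 13 members in FD, where 1.54% of all genes showed them, and for 8 in FR, where 1.46% did. The size of this count also depended on the processing: median centring without loess gave 60 in FD and 59 in FR, and normexp on all spots gave 13 and 0. Across the members, the values of array 1 and array 2 correlated at r = -0.50 in FD (63 genes) and -0.36 in FR (64 genes), against 0.13 and 0.41 across all measured genes; the genes of an array share its 2 RNA pools and its normalization, and no p-value is attached. Opposite values of equal size cancel in the mean. Within a comparison each dye orientation is 1 array, so dye and array cannot be told apart there. Across both comparisons each orientation is 2 arrays, and whether the pattern follows the dye was not tested.

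**Figure D1:**
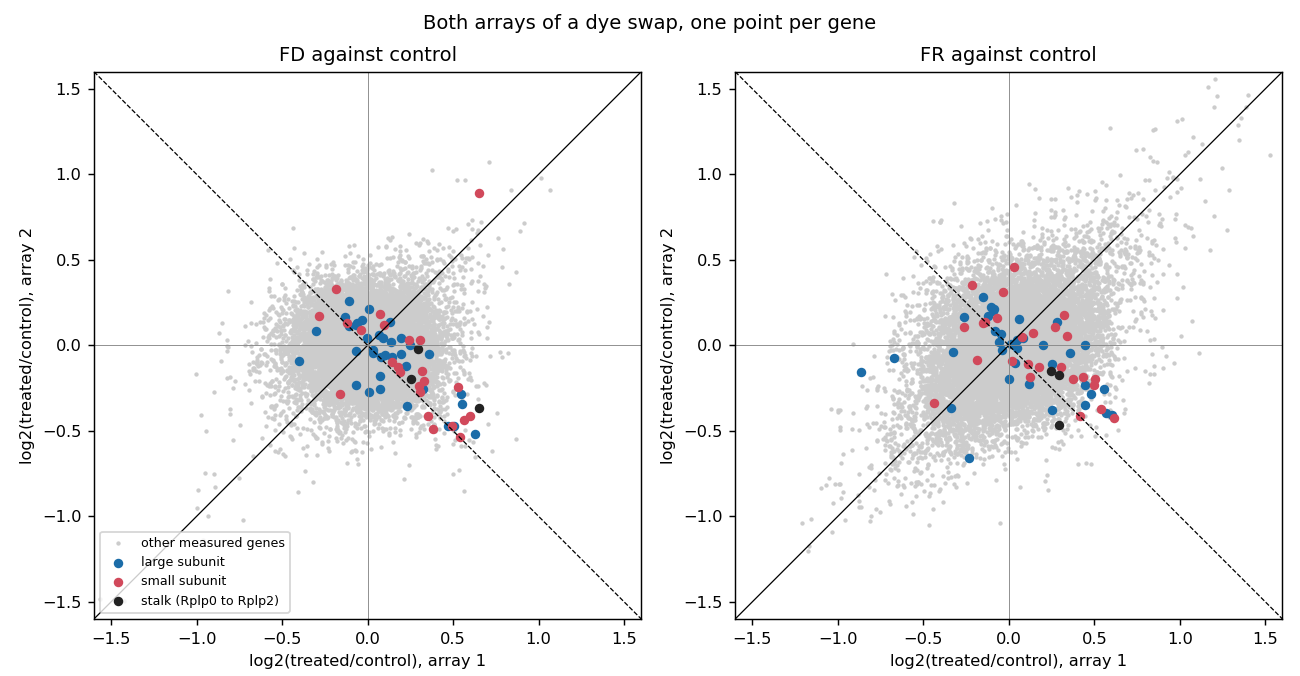
Log2(treated/control) on array 1 (horizontal) against array 2 (vertical), one point per measured gene, for FD (left) and FR (right); members are coloured by subunit and other genes are grey. The solid diagonal marks equal values and the dashed one opposite values; most members lie along the dashed line, the one small subunit point near 0.65 and 0.89 in FD is the Rps6 value, and 10 genes in FD and 3 in FR lie outside the axes at 1.6.

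Rps7, a small subunit protein that also binds the p53 regulator Mdm2, shows the pattern. Its log2 ratio was 0.54 on array 1 and -0.53 on array 2 in FD, with a mean of 0.00, and 0.54 and -0.37 in FR, with a mean of 0.08. Rps27a, made as a fusion with ubiquitin, gave 0.60 and -0.41 in FD and 0.62 and -0.42 in FR. Rpl38, whose loss in mice disturbs the patterning of the axial skeleton, gave 0.55 and -0.28 in FD and 0.57 and -0.40 in FR. Rps20 gave 0.57 and -0.44 in FD and 0.42 and -0.41 in FR, and Rpl37a gave 0.47 and -0.47 in FD and 0.48 and -0.28 in FR. In each of these genes array 1 was high and array 2 low in both comparisons.

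Other members turned the other way, lower on array 1 and higher on array 2. In FD these were 12 of 63 members, and 4135 of all 17964 measured genes. In FR they were 15 of 64 members, and 3612 of all 18560 measured genes. Rps9 had log2 ratios of -0.12 and 0.13 in FD and -0.22 and 0.35 in FR. Rpl3, which helps form the peptidyl transferase centre, had -0.06 and 0.13 in FD and -0.12 and 0.17 in FR. For Rplp0 the sign depended on the probe: both NM_007475 probes were higher on array 1, at 0.29 and 0.22 in FD, whereas the U89419 probe, which the files do not map, gave -0.16 and 0.22 in FD and -0.31 and 0.38 in FR. The last probe is printed 10 times per array. Its values rest on 3 spots without a flag on each FD array, and on 1 and 2 on FR arrays 1 and 2. Those FD spots had an SD of 0.09 on array 1 and 0.10 on array 2, less than the gap between the arrays. With flagged spots kept, the probe gave -0.05 and 0.01 in FD and -0.04 and 0.12 in FR, so the size of the gap depended on the flags.

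The opposition was concentrated among bright probes. Among the 56 member probes of FD with a mean log2 signal of 14 or more, the arrays correlated at r = -0.85, with medians of 0.21 and -0.08, and in the 29 probes below 14 at r = 0.36. In FR the values were r = -0.78 over 58 bright probes and 0.72 over 27 dim ones. Other genes of that brightness had array medians of -0.02 and 0.02 in FD (331 genes, r = -0.39) and of -0.02 and 0.08 in FR (292 genes, r = 0.09). Over 85 member probes in each comparison, the difference between the arrays correlated with mean log2 signal at r = 0.37 in FD and 0.23 in FR. With the GC content of the probes it correlated at r = -0.05 and -0.12. The next count kept flagged spots, read each gene by its brightest probe and was not made over all genes. Of the 12 members left out by flags, 8 were higher on array 1 and lower on array 2 in both comparisons. The widest were those of Rps23 and Rpl41: Rps23, a protein of the decoding centre, gave 1.10 and -0.68 in FD and 1.04 and -1.03 in FR, and Rpl41 gave 1.05 and -0.71 in FD and 0.51 and -0.83 in FR.

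**Figure D2:**
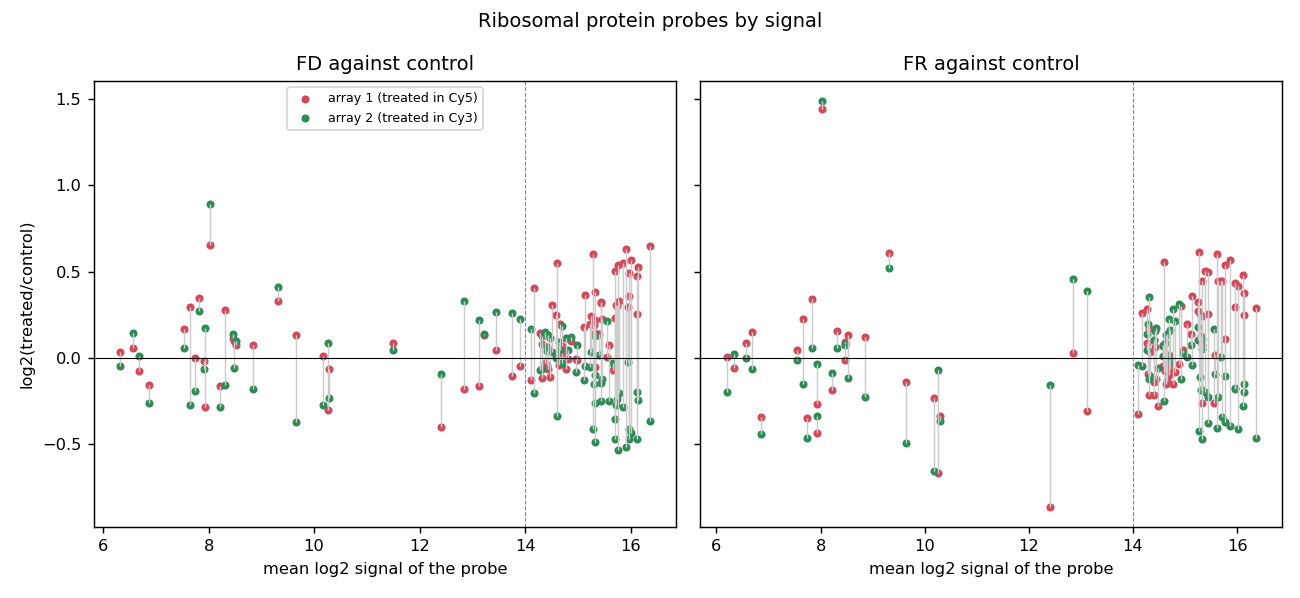
Log2(treated/control) of every measured member probe on array 1 and array 2 (vertical) against its mean log2 signal (horizontal), joined by a line per probe, for FD (left) and FR (right). To the right of the dashed line at 14 the 2 arrays mostly lie on opposite sides of 0, and the probe near 8 that is high on both arrays is the dimmer one named Rps6.

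Read as the mean of both arrays, most members of both subunits lay close to 0. The 36 large subunit genes measured in FD had a median of 0.03 and a range from -0.25 to 0.16, and the 24 small subunit genes a median of 0.03 and a range from -0.22 to 0.77, whose upper end is the dimmer probe named Rps6. In FR the medians were 0.04 over 35 large subunit genes and 0.08 over 26 small subunit genes, with ranges from -0.51 to 0.23 and from -0.39 to 0.25. The difference between the arrays divided by 2 had an SD over members of 0.22 in both comparisons, against 0.13 over all genes in each; it holds the opposite values that cancel in a mean and is not the error of the means.

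**Figure D3:**
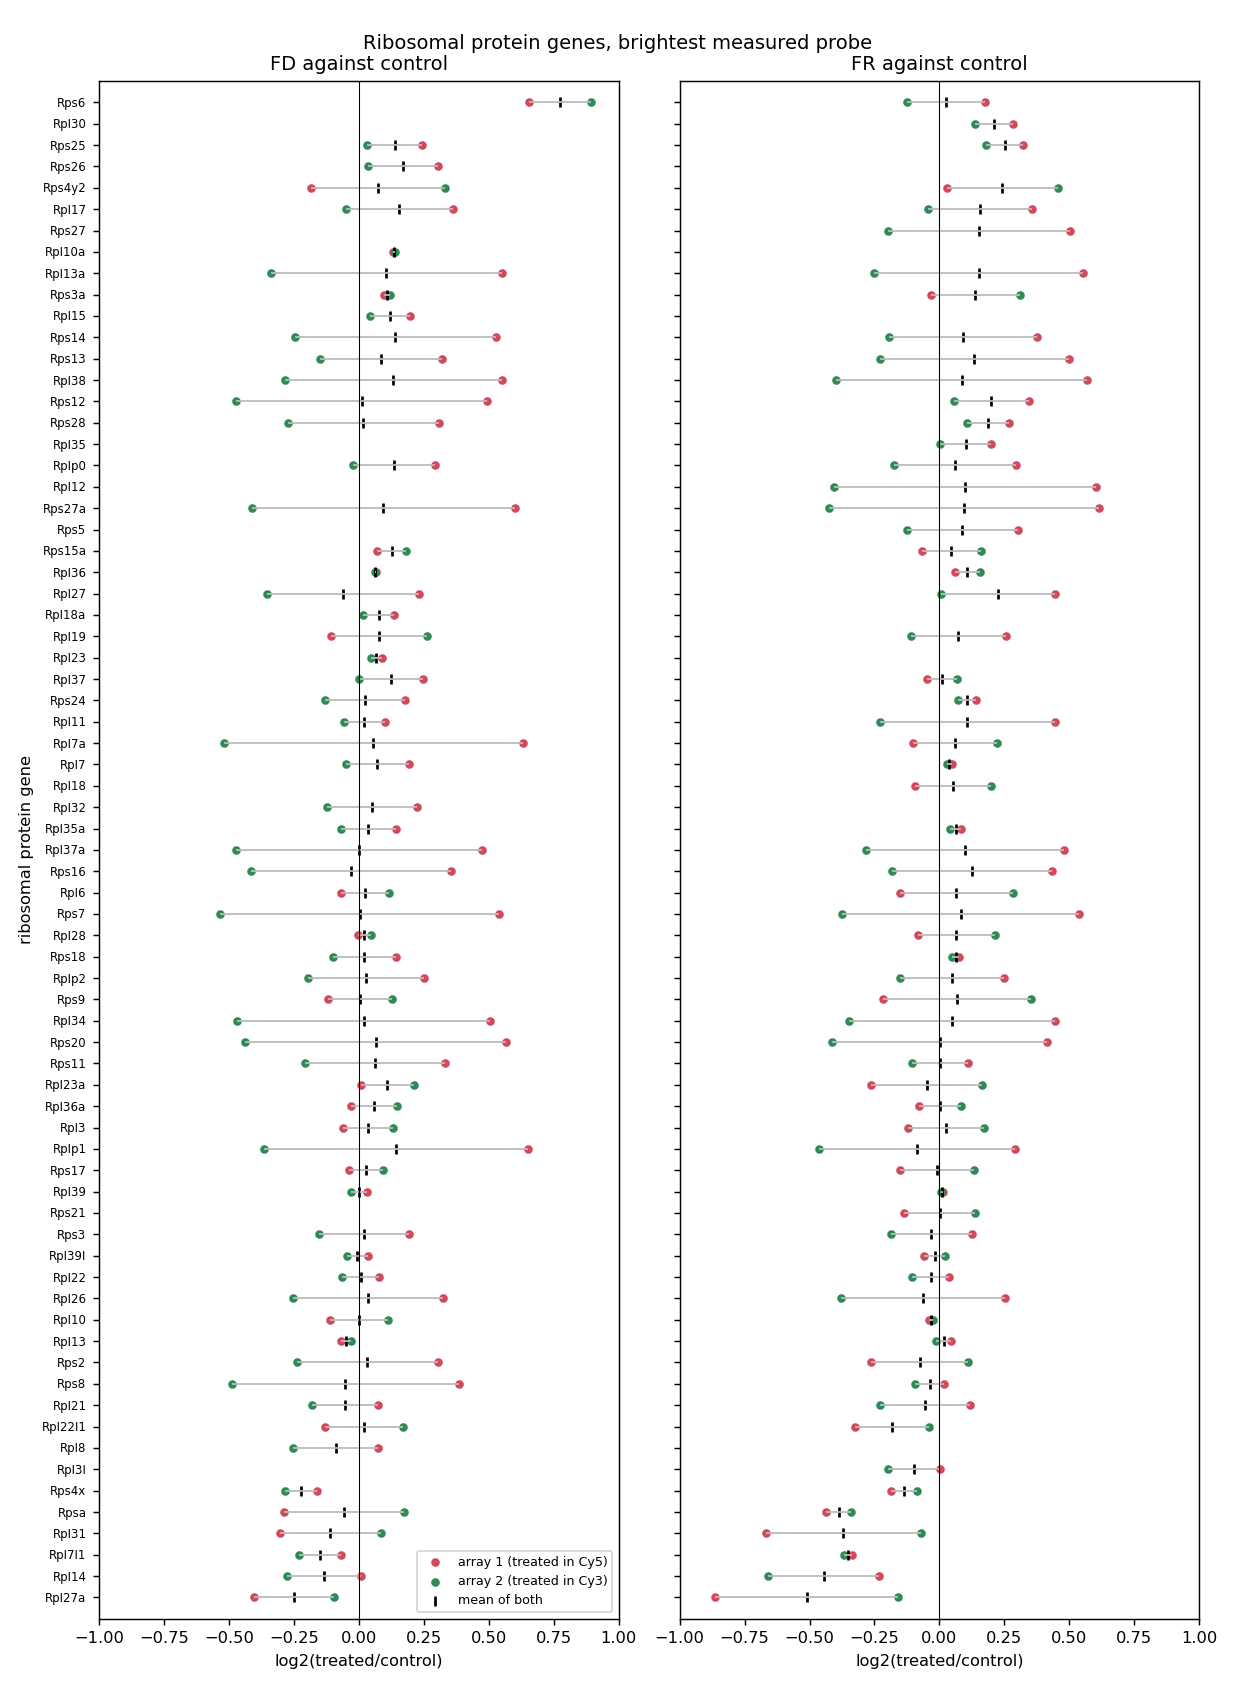
Log2(treated/control) of each member measured in FD (left) or FR (right), by its brightest measured probe, on array 1, array 2 and as their mean, ordered by the mean over both comparisons; a gene with no point in a panel was not measured there. The long bars that straddle 0 are members whose arrays disagree, and Rpl27a, Rpl14 and Rpl7l1 lie at the lower end.

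The stalk proteins recruit the elongation factors to the large subunit. Rplp1 gave 0.65 and -0.36 in FD, with a mean of 0.14, and 0.29 and -0.47 in FR, with a mean of -0.09. Rplp2 gave 0.25 and -0.20 in FD and 0.25 and -0.15 in FR, and the brightest Rplp0 probe 0.29 and -0.02 in FD and 0.29 and -0.18 in FR. All 3 were higher on array 1 and lower on array 2 in each comparison.

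Among large subunit genes, Rpl27a had the lowest mean in both comparisons. Its log2 ratio was -0.40 and -0.09 in FD, with a mean of -0.25 ± 0.22 (SD of 2 arrays), and -0.86 and -0.16 in FR, with a mean of -0.51 ± 0.50. All 4 values were below 0, but the arrays of each comparison lay further apart than the size of their mean. Rpl14 gave 0.01 and -0.28 in FD and -0.23 and -0.66 in FR, with means of -0.13 and -0.45. Rpl31 was read by a pair of probes that gave like means, -0.11 and -0.12 in FD and -0.37 and -0.32 in FR, but with opposite strong arrays: the brighter one gave -0.67 and -0.07 in FR and the other -0.14 and -0.49. Rpl7l1, a relative of Rpl7, gave -0.07 and -0.23 in FD and -0.34 and -0.37 in FR. Its FR arrays read alike, while its dimmer probe gave 0.13 and -0.12 there. In FR the brightest probes of Rpl27a, Rpl14, Rpl31 and Rpl7l1 had mean log2 signals of 12.3, 10.0, 10.1 and 10.2. The median over all members measured in FR was 14.8. Rpl8 and Rpl27 closed the lower end in FD with means of -0.09 and -0.06.

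At the upper end of the large subunit in FD, Rpl17 had a mean of 0.16 (0.36 and -0.05) and Rpl10a a mean of 0.13 (0.13 and 0.14). The Rpl10a arrays read alike, and those of Rpl17 straddled 0. In FR, Rpl27 gave 0.45 and 0.00, a mean of 0.23, and Rpl30 gave 0.28 and 0.14, a mean of 0.21, while Rpl17 again gave 0.36 and -0.04. Rpl27 thus had a mean of opposite sign in FD, where its arrays read 0.23 and -0.35.

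Among small subunit genes other than Rps6, the highest FD means were those of Rps26 at 0.17 (0.30 and 0.03), Rps25 at 0.14 (0.24 and 0.03) and Rps14 at 0.14 (0.53 and -0.25). Rps26 contacts the mRNA at the exit site, and Rps25 is needed for initiation at several internal ribosome entry sites. In FR, Rps25 was the highest member with 0.32 and 0.18, a mean of 0.25 ± 0.10. Rps4y2 and Rps12 came next and are described with their probes below. Rps28 gave 0.27 and 0.11, a mean of 0.19, and Rps27 gave 0.50 and -0.20, a mean of 0.15. The Rps27 probe is placed on chromosome 9 and the Rps29 probe on chromosome 2 by the array files, whereas the genes lie on chromosomes 3 and 12 in RefSeq, so near-identical copies cannot be told apart there. Rps12 was read by a bright probe in FD (0.49 and -0.47) and by a dim one, from the clone AK132208, in FR (0.34 and 0.06), so its FR mean of 0.20 is not from the same probe; the dim probe gave 0.35 and 0.27 in FD.

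At the lower end of the small subunit, Rpsa, known also as the laminin receptor, gave -0.29 and 0.17 in FD and -0.44 and -0.34 in FR, a mean of -0.39 ± 0.07. Both FR values came from the dim probe A_52_P372165. The bright Rpsa probe was flagged on 3 of 4 arrays and, with flagged spots kept, gave 0.01 and 0.12 in FR and 0.10 and 0.16 in FD, so the probes disagreed. Rps4x gave -0.16 and -0.29 in FD and -0.19 and -0.09 in FR, again from a dim probe (BE915090, not mapped in the files). Its bright NM_009094 probe, with flagged spots kept, read 0.58 and -0.30 in FD and 0.44 and -0.28 in FR.

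The 1 value at least 1.5-fold higher on both arrays in FD is counted under Rps6 because the array names its probe so, and which RNA that probe reads was not tested. It came from the dimmer of the probes named Rps6, which gave 0.65 and 0.89, a mean of 0.77 ± 0.17 (SD of 2 arrays). The same probe gave 1.45 and 1.49 in FR, a mean of 1.47 ± 0.03. In normalised log2 signal it read 8.43 and 8.41 in the FD pool against 7.77 and 7.52 in its control, and 8.90 and 8.60 in the FR pool against 7.45 and 7.11 in its control. Both treated pools were above both control readings on every array. Counted by probe, it was 1 of 85 measured member probes at least 1.5-fold higher on both arrays in FD, where 0.0892% of all measured probes were, and 1 of 85 in FR, where 0.624% were. None of the member probes was at least 1.5-fold lower, where 0.105% and 0.423% of all probes were.

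The other Rps6 probe did not show this. A_51_P344734, designed on the Rps6 transcript NM_009096, gave 0.17 and -0.13 in FR, a mean of 0.02, and it stood for the gene there because it is the brighter one. Both its FD spots carried an outlier flag; kept, they gave 0.33 and -0.31, a mean of 0.01, and Rps6 then no longer passed the 1.5-fold rule. The 1.5-fold difference in FD was thus read by the dimmer probe and not by the one designed on NM_009096.

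**Figure D4:**
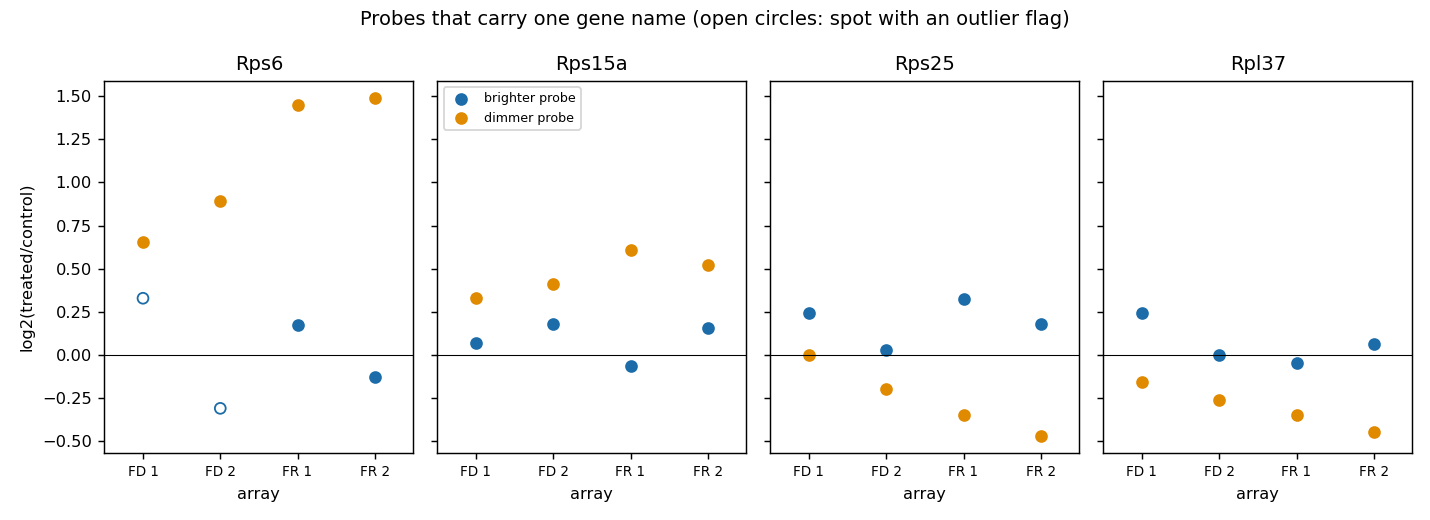
Log2(treated/control) on each of the 4 arrays for 4 genes with a bright and a dim probe; open circles are spots with an outlier flag. The dim Rps6 probe is the only one above 1, the dim Rps15a probe lies above its bright partner on all 4 arrays, and the dim Rps25 and Rpl37 probes lie below theirs on all 4.

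Rps15a, Rps25 and Rpl37 repeated this split on a smaller scale. The dim Rps15a probe gave 0.33 and 0.41 in FD and 0.61 and 0.52 in FR, a mean of 0.56, against 0.07 and 0.18, and -0.07 and 0.16, a mean of 0.05, for the bright one; the probes start 10034 bases apart within a gene of 11774 bases. The dim Rps25 probe gave -0.00 and -0.19 in FD and -0.35 and -0.47 in FR, while the bright probe was the highest member of FR. The dim Rpl37 probe gave -0.16 and -0.26 in FD and -0.34 and -0.44 in FR, against 0.25 and -0.00, and -0.05 and 0.07, for the bright one. Of the members, Rps6, Rps25 and Rps15a had measured probes whose FR means differed by more than 0.5 (1.44, 0.66 and 0.52), and no member did in FD. The brighter Rps6 probe was left out of FD by its flags. With flagged spots kept, its FD mean was 0.01, against 0.77 for the dimmer probe. How many of all genes had probes that differed so was not counted.

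Several ribosomal proteins have a paralogue, and pairs were compared where both were read. Rpl22 gave 0.08 and -0.07 in FD and 0.04 and -0.10 in FR, and Rpl22l1, its paralogue that can take its place, gave -0.13 and 0.17 in FD and -0.32 and -0.04 in FR, a mean of -0.18. Rpl7 gave 0.19 and -0.05 in FD and 0.05 and 0.03 in FR, and Rpl10, which joins the large subunit late in its assembly, gave -0.11 and 0.11 in FD and -0.04 and -0.03 in FR; in both genes the probe differed between FD and FR. Rpl39 was among the steadiest members, with 0.03 and -0.03 in FD and 0.02 and 0.01 in FR. Its testis-enriched paralogue Rpl39l and the striated muscle paralogue Rpl3l gave signals near background, with means of -0.01 and -0.02 for Rpl39l and of -0.10 for Rpl3l, which was measured in FR alone. The probe named Rps4y2 carries an accession that RefSeq now names Rps4l, on chromosome 6. It gave -0.18 and 0.33 in FD and 0.03 and 0.46 in FR, and whether it also reads the related Rps4x RNA cannot be told apart. Rps27l was flagged on every array, and no probe was named Rpl10l.

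FD was set against FR array by array in equal dye orientation, which removes what arrays of equal orientation share. Over 53 genes read by a probe measured on all 4 arrays, the median log2 difference was 0.001, with array medians of 0.06 and -0.04, against -0.001 over 16759 genes. None of the 53 was at least 1.5-fold higher in FD on both arrays, where 0.0716% of all genes were, and 1 was at least 1.5-fold lower, where 0.269% were; it was the dimmer probe named Rps6, at -0.79 and -0.60, and without that probe none of 52 was. Rps7 differed by 0.00 and -0.16 and Rps27a by -0.02 and 0.01, although their own ratios on an array reached 0.54 and above. Rpl14 differed by 0.24 and 0.38, Rpsa by 0.15 and 0.51 and Rpl27 by -0.22 and -0.36, each of one sign on both arrays and below 1.5-fold on at least 1 of them.

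The genes around the ribosome were counted by the same rule. Of all measured genes, 0.0891% in FD and 0.582% in FR were at least 1.5-fold higher on both arrays. At least 1.5-fold lower were 0.128% and 0.431%, so few or none are expected in these and the following lists. Of ribosome assembly factors, 37 were measured in FD and 33 in FR, none passed 1.5-fold on both arrays in either direction, and the medians were -0.001 and 0.06. Gnl3 (nucleostemin) gave 0.42 and 0.29 and Nop16 -0.29 and -0.55 in FR, and Wdr12, of the PeBoW complex, 0.20 and 0.33 in FD. Of translation factors and other TOP mRNAs, 29 and 25 were measured, with medians of 0.04 and 0.09; none passed in FD, and in FR 1 passed, lower, namely Eif2s1 at -0.65 and -0.82. Eif2s1 encodes the alpha subunit of eIF2, which is phosphorylated in the integrated stress response. Eif2s3x, encoding another eIF2 subunit, gave 0.37 and 0.87 in FR, and Eif3a -0.57 and -0.29 in FD.

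Of mTORC1 and TOP regulators, 23 and 21 were measured, none passed, and the medians were 0.02 and 0.03. Eif4ebp3, a repressor of cap-dependent translation, had the highest mean there in both comparisons, with 0.42 and 0.40 in FD and 0.28 and 0.58 in FR. Rps6kb1, which phosphorylates Rps6, gave 0.38 and 0.12 in FR. Proteins of the mitochondrial ribosome served as a second ribosome: 60 and 48 genes were measured, with medians of 0.02 and -0.01, and array correlations of 0.27 and 0.70 across genes. Only Mrpl15 passed, higher, where 0.0891% of all genes in FD and 0.582% in FR were. It gave 1.07 and 0.91 in FD and 1.53 and 1.11 in FR, and Mrps25 gave -0.55 and -0.82 in FR.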

How the data were processed

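Mean and local background intensity of every spot, uncorrected, were read from the scanner files that the authors deposited, which Agilent Feature Extraction 9.5.3.1 had written with positions on mouse build mm9. Per the file headers, the software's own log10 ratio (red to green, background-subtracted and dye-normalised) and its flags stand beside them. The authors' deposited value table holds log2 ratios of treated over control on all 4 arrays, a scale and direction found by setting it against the scanner ratio; how its dim spots were made is unknown.

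Spots whose local background exceeded 2 times that array's median were dropped. Background correction was by normexp with an offset of 50, followed by a loess fit per array (limma 3.58.1, R 4.3.3). Control spots had weight 0, outlier-flagged spots were left out, spots of a probe were averaged, and the swapped arrays were turned to log2(treated/control). The same steps, tested on simulated data, recovered planted changes. The simulated dye effect depended on signal alone, so opposite values that remain after loess, as in the members, were not simulated. Promoter letters were searched in RefSeq's table with Python 3.11.15 and pandas 2.3.3. With 1 pool per condition there is no test; the number of arrays, 2 per comparison, limits the precision.

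The members and lists were chosen with earlier results of these data known. Named members are the 8 highest and 8 lowest means of each comparison, those at least 1.5-fold changed on both arrays, those whose measured probes differed by over 0.5, and paralogues and stalk genes; for other lists up to 3 genes by size. Members named for the dye-swap pattern, for flags or for FD against FR beyond that rule (Rps7, Rps9, Rps20, Rps23, Rps27a, Rps29, Rpl37, Rpl37a, Rpl38 and Rpl41) were chosen after their values were seen. Alternatives were median centring, loess without members, the scanner's ratio, the authors' table, other spot and probe filters and single arrays. The sequence and position of 1 probe are not reported here.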

Additional observations from a re-analysis of the deposited data

Results flagged for a closer look

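Of 67 member probes measured on all 4 arrays, 1 was read on one side of 0 on both FD arrays and on the other side on both FR arrays. It was the Rpl7 probe A_52_P346326, with log2 ratios of -0.01 and -0.08 in FD and 0.05 and 0.03 in FR, a difference of -0.084 between FD and FR. All these values lay close to 0, the same count over all probes was not made, and the difference was not tested.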

How the results depend on the processing

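FD and FR medians kept within the spread between arrays under loess without member spots, the scanner's ratio, the authors' table and saturated spots dropped. The counts of members higher, lower or at least 1.5-fold changed kept within 1.5 times there. The FD count with opposite signs did not, and fell from 13 to 8 by the scanner's ratio and the authors' table. Median centring without loess gave an FD median of 0.19 and an FD minus FR median of 0.23, with 1 member higher and 0 lower on both arrays in FD, 0 at least 1.5-fold changed there, and 0 higher and 1 lower in FR; the cause was not tested. Normexp on all spots gave an FR median of 0.24, 38 members higher on both arrays there, and an FD minus FR median of -0.17. With outlier-flagged spots kept 0 members passed 1.5-fold in FD, since the brighter Rps6 probe then stood for the gene, and 0 passed with the dimmer probe left out, an alternative chosen after seeing the data. In FR 1 passed with the median over probes and 1 with only probes measured on all 4 arrays, both times Rps6 through its dimmer probe, and a 1.2-fold rule passed 2. From a single array, the FD counts were 23 to 47 higher, 16 to 40 lower and 1 to 4 at least 1.5-fold; the FR counts were 28 to 41 higher, 23 to 36 lower and 1 to 4 at least 1.5-fold, with FR medians from -0.058 to 0.080. Equal-numbered arrays share the dye orientation, and the labels do not say whether they share a control pool. With the replicate block the FD minus FR median was 0.001, and without it -0.02. Of 661 values of named members under the alternatives, 607 moved by less than the SD of the 2 arrays and 54 by more. That SD holds the opposite values that cancel in a mean, so a small mean could change sign within it. Under median centring the FD mean of Rpl8 went from -0.09 to 0.09. The only called value, that of Rps6 in FD, kept its sign, but with flagged spots kept it was 0.01, read by the brighter probe. Members with opposite signs of at least 1.2-fold, counted after the data were seen, numbered 60 in FD and 59 in FR under median centring, 0 in FR with normexp on all spots, 8 and 9 by the scanner's ratio and the authors' deposited table, and 21 and 14 with flagged spots kept. The FD value of Rps6 was 1.01 by the scanner's ratio.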
